A study of Mus musculus with 9 samples.

Results

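Keratins are the paired filament proteins of epithelial cells, and their genes were described here across 9 samples of mouse pancreatic tumor cells. The members were all genes of the table whose symbol is Krt followed by a number and, in some, a letter, with the keratin-associated Krtap genes left out. This gave 55 keratin genes among 24493 genes, 28 of type I and 27 of type II. The samples were all of clone 6419c5, a tumor cell line on a C57BL/6 background, grown as tumors implanted under the skin and labelled as late stage. There were 3 samples of Usp22-KOA and 3 of Usp22-KOB, which carry a knockout of Usp22, and 3 of WT. Every sample comes from the same clone, and the sources used here state neither what A and B stand for nor how tumor cells were parted from host cells. Polyadenylated RNA was sequenced, and the deposited values are TPM, a length-scaled abundance, which sets each gene's reads against its length and scales each library to the same total. Levels can therefore be compared between genes. No label ties a sample to a mouse of its own, so the p-values cover just the spread within the groups, part of which may be technical. For the mean of both knockouts against WT, they leave out the difference between Usp22-KOA and Usp22-KOB.

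A keratin filament is built from pairs, each made of 1 acidic type I chain and 1 basic or neutral type II chain, and a chain without a partner is usually degraded. Simple, single-layered epithelia such as the pancreatic duct use the type II chains Krt8 and Krt7 with the type I chains Krt18, Krt19 and, in gut-type cells, Krt20. Layered epithelia use other pairs, among them Krt5 with Krt14 in the basal layer and Krt1 with Krt10 above it, and hair uses a further set. Filaments are anchored at desmosomes between cells and at hemidesmosomes on the basement membrane. Usp22 removes ubiquitin from histones as the protease subunit of SAGA, a coactivator complex of transcribed genes.

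All 3 Usp22-KOA samples held less Usp22 than any other sample, at 9.77, 8.46 and 10.1 TPM, followed by 11.8, 14.9 and 14.1 TPM in Usp22-KOB, against 55.1, 54.5 and 56.4 TPM in WT. The Usp22 log2 difference from WT was -2.44 ± 0.10 in Usp22-KOA (SE; limma, Benjamini-Hochberg adjusted p = 1.8e-07) and -1.96 ± 0.10 in Usp22-KOB (adjusted p = 2.2e-06). Each library's lowest rank correlation with its own group was between 0.975 and 0.985, above its highest with another group, which was between 0.915 and 0.949. Depth cannot be read from TPM and is unknown. An SD is over the 3 samples of a group. An SE comes from the limma fit, which pools the spread within the groups and moderates it across genes. The number of genes at 1 TPM or more was 13037 to 13940 per library.

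The keratin genes lie in a pair of clusters. On chromosome 11 of GRCm38, also called mm10, 27 type I genes lie between 99232761 and 100269871, a span of 1037 kb. On chromosome 15, 26 type II genes and the type I gene Krt18 lie between 101347444 and 102032027. Krt18 is the outlying type I gene, and it lies 23.7 kb from Krt8, its usual partner. Coordinates were found for 54 of the 55 keratins, all but Krt85. The promoters below show the keratins that differed most between the knockouts beside their neighbours: Krt18 with Krt8 and Krt79 at one end of the chromosome 15 cluster, Krt7 near the other end, and Krt23 with its neighbour Krt20 in the chromosome 11 cluster. Each is the 250 bases before the RefSeq transcript start in GRCm38.p6, read 5′ to 3′ on the strand of the gene. Capitals mark matches, on either strand, to the letters of a TATA box, which are TATAAA, an AP-1 site, which are TGANTCA, a GC box, which are GGGCGG, and an E-box of the kind CACCTG. The regions are chr15:102027966-102028215 on the plus strand for Krt18, chr15:102004343-102004592 on the minus strand for Krt8, chr15:101940325-101940574 on the minus strand for Krt79, chr15:101412153-101412402 on the plus strand for Krt7, chr11:99493121-99493370 on the minus strand for Krt23 and chr11:99438154-99438403 on the minus strand for Krt20.
Krt18: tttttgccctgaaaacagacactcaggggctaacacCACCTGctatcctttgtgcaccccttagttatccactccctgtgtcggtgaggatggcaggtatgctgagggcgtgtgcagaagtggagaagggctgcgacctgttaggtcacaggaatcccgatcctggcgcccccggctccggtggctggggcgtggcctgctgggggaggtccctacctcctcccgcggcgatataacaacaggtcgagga
Krt8: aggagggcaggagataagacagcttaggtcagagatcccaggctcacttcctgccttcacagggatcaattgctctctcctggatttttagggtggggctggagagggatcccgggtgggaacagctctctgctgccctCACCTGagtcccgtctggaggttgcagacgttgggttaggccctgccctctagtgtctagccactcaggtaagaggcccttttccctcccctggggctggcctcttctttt
Krt79: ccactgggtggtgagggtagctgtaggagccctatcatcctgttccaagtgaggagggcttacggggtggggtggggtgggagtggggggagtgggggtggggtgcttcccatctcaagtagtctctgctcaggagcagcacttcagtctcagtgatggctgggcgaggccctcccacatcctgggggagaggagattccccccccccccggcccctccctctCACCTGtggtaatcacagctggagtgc
Krt7: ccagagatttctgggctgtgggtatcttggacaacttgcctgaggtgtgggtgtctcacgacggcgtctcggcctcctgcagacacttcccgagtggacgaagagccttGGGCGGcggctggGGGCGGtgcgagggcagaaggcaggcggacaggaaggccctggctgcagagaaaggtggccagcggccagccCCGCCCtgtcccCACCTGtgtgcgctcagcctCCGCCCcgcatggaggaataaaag
Krt23: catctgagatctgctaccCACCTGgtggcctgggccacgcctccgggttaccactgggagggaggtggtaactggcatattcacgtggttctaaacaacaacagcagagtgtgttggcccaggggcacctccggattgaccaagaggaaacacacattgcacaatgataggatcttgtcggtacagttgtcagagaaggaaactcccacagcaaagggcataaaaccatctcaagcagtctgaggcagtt
Krt20: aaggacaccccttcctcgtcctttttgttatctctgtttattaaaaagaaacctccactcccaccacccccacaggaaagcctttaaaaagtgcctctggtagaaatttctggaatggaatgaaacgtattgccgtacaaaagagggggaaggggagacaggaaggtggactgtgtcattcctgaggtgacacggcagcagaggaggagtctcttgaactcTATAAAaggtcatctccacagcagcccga

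The 6 windows were read for these letters, and no match overlapped another. CACCTG stood once each in the windows of Krt18, Krt8, Krt79, Krt7 and Krt23, at 214, 111, 27, 44 and 232 bases before the start, and not in that of Krt20. TATAAA stood in the Krt20 window alone among the 6, 29 bases before the start. GGGCGG or its reverse complement stood 4 times in the Krt7 window, at 141, 128, 56 and 24 bases before the start, and in none of the other 5. TGANTCA was in none of the 6. Over 37 windows of 36 keratin genes, 45.9% held TATAAA, 37.8% CACCTG, 5.41% GGGCGG and 5.41% TGANTCA. Over all 32851 windows of the same length in the RefSeq table the shares were 12.4% for TATAAA, 17.2% for CACCTG, 32.7% for GGGCGG and 6.75% for TGANTCA. The window of Krt7 was the richest of the 6 in G and C, at 66.0%, and that of Krt20 the poorest, at 48.0%, which is also the median over the keratin windows, beside 52.4% over all windows. A match is a description of letters and not a binding site.

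All 9 libraries held the keratins of a simple epithelium at high levels. Of the 55 keratins, 13 reached a group mean of at least 1 TPM, and 11 had an average of 1 TPM or more across all samples and were tested. A further 15 were listed at 0 in all 9 libraries. Summed over all 55 genes, keratin transcripts took 7322, 6499 and 7059 TPM in Usp22-KOA samples, 6866, 7137 and 8401 TPM in Usp22-KOB and 7989.8, 7462 and 7760.3 TPM in WT. The 3 groups overlap only in part: each Usp22-KOA sample lay below each WT sample, while Usp22-KOB held both lower and higher values than WT. The 6 genes Krt8, Krt19, Krt18, Krt7, Krt20 and Krt23 made up between 99.3% and 99.6% of this sum in each library.

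What differed more than the sum was its makeup. Type II keratins summed to 2652 ± 137 TPM in Usp22-KOA, 3327 ± 387 TPM in Usp22-KOB and 3425 ± 126 TPM in WT (SD, n = 3 each). Type I keratins summed to 4308 ± 302 TPM in Usp22-KOA, 4141 ± 433 TPM in Usp22-KOB and 4312 ± 148 TPM in WT. The ratio of type I to type II transcripts was 1.61, 1.56 and 1.70 in Usp22-KOA, 1.24, 1.27 and 1.23 in Usp22-KOB and 1.27, 1.27 and 1.23 in WT. All 3 Usp22-KOA ratios lay above the other 6, which overlap each other. Sums and ratios over the members are a description without a test.

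**Figure D1:**
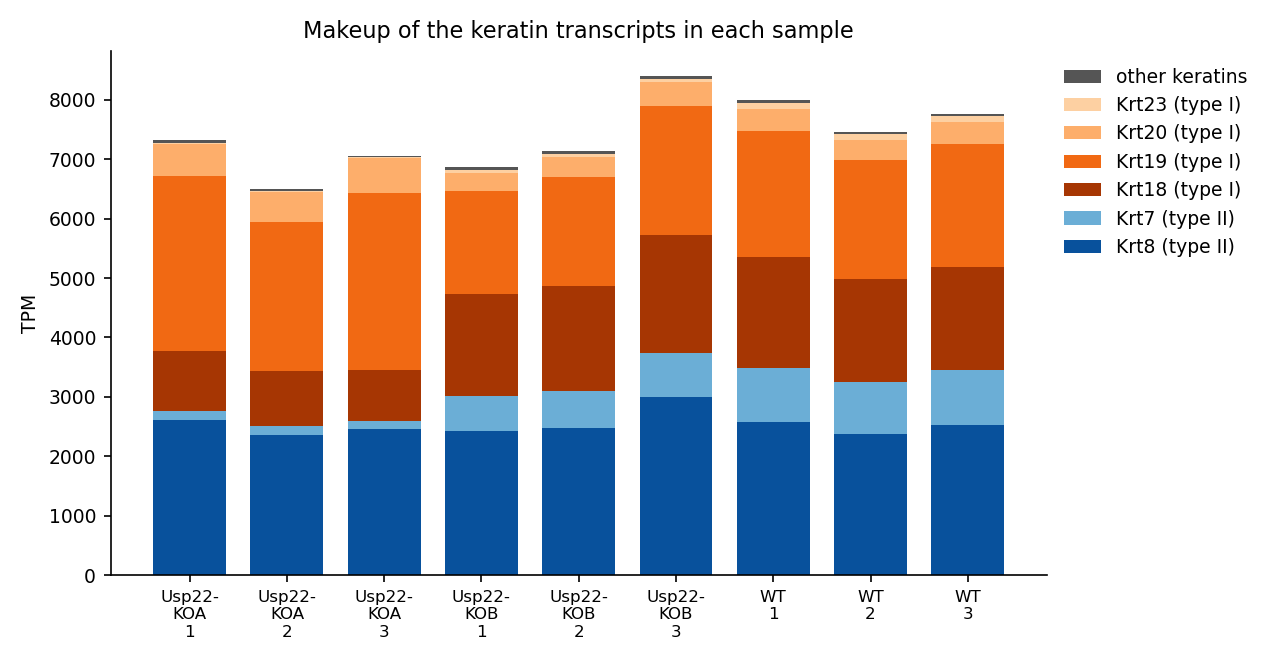
Stacked bars give keratin transcripts in TPM for each of the 9 samples, with type II genes in blue and type I genes in orange. The Krt8 layer has a like height in each bar, while in the Usp22-KOA bars the layers of Krt7 (135 to 155 TPM) and Krt18 (866 to 999 TPM) are thin and that of Krt19 (2517 to 2977 TPM) is thick.

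Krt8, the main type II chain of simple epithelia, passed in none of the 4 comparisons. It stood at 2611, 2355 and 2455 TPM in Usp22-KOA samples, 2425, 2477 and 3001 TPM in Usp22-KOB and 2585, 2379 and 2520.2 TPM in WT. The 3 groups overlapped, and the highest value was in 1 Usp22-KOB sample. The Krt8 log2 difference from WT was -0.01 in Usp22-KOA, with a 95% interval of -0.20 to 0.17, and 0.07 in Usp22-KOB, with an interval of -0.11 to 0.26. Neither passed the test (limma, Benjamini-Hochberg adjusted p = 0.909 and 0.525). All differences are of log2(TPM + 1), which understates the change of low genes, and are given ± SE. A share of 32.2% of the Krt8 transcript's 31-base words also occurs in the pseudogene Krt8-ps, which has no row in the table, so reads could be split between them.

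Krt18, the type I partner of Krt8, fell in Usp22-KOA alone. Its level was 999, 925 and 866 TPM in Usp22-KOA samples, 1709, 1761 and 1997 TPM in Usp22-KOB and 1857, 1718 and 1739 TPM in WT. The highest Usp22-KOA value lay well below the lowest of the other 6, and Usp22-KOB and WT overlapped. The mean in Usp22-KOA was 52.5% of that in WT, a log2 difference of -0.93 ± 0.07 (limma, Benjamini-Hochberg adjusted p = 8.0e-06). In Usp22-KOB the difference from WT was 0.04 ± 0.07 (adjusted p = 0.713), and the difference between the knockouts, Usp22-KOA minus Usp22-KOB, was -0.97 ± 0.07 (adjusted p = 1.1e-05). In bulk samples, fewer cells of a type and less RNA per cell cannot be told apart. The ratio of Krt18 to Krt8 within a sample was 0.383, 0.393 and 0.352 in Usp22-KOA, 0.705, 0.711 and 0.665 in Usp22-KOB and 0.719, 0.722 and 0.690 in WT, so the unequal levels of the pair in Usp22-KOA hold inside each library.

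Krt19, the small type I keratin of duct cells, moved the other way. It stood at 2948, 2517 and 2977 TPM in Usp22-KOA samples, 1735, 1841 and 2156 TPM in Usp22-KOB and 2130.3, 2011 and 2053 TPM in WT. Each Usp22-KOA sample lay above the other 6, and Usp22-KOB and WT overlapped. Krt19 rose in Usp22-KOA by 0.44 ± 0.09 over WT (limma, Benjamini-Hochberg adjusted p = 0.00247) and was higher there than in Usp22-KOB by 0.56 ± 0.09 (adjusted p = 8.4e-04). The difference of Usp22-KOB from WT was -0.12 ± 0.09 (adjusted p = 0.338).

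Krt20, a type I keratin of gut epithelium and of the surface of the urinary tract, followed the same order. It stood at 542, 492 and 579 TPM in Usp22-KOA samples, 299, 325 and 408 TPM in Usp22-KOB and 362, 334 and 383 TPM in WT. Usp22-KOA lay above the other groups without overlap, and the values of Usp22-KOB spanned those of WT. Krt20 rose in Usp22-KOA by 0.58 ± 0.11 over WT (limma, Benjamini-Hochberg adjusted p = 0.00195), and the Usp22-KOB difference from WT was -0.07 ± 0.11 (adjusted p = 0.644). Between the knockouts, Krt20 differed by 0.65 ± 0.11 (adjusted p = 0.00128). It lies 39.8 kb from Krt23, which fell in both knockouts.

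Krt7, the second type II chain of ducts and a usual partner of Krt19, fell in both knockouts and most in Usp22-KOA. It was measured at 155, 149 and 135 TPM in Usp22-KOA samples, 599, 627 and 730.4 TPM in Usp22-KOB and 903, 878 and 934 TPM in WT. The 3 groups did not overlap, with Usp22-KOB between the other two and nearer to WT. The mean was 16.2% of the WT mean in Usp22-KOA, a log2 difference of -2.62 ± 0.08 (limma, Benjamini-Hochberg adjusted p = 4.7e-08). In Usp22-KOB it was 72.1% of the WT mean, a difference of -0.48 ± 0.08 (adjusted p = 0.00182). The knockouts differed from each other by -2.15 ± 0.08 (adjusted p = 3.0e-07).

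Within a library, transcripts of usual partners stood in other ratios in Usp22-KOA. The ratio of Krt19 to Krt7 was 19.0, 16.9 and 21.98 in Usp22-KOA, 2.90, 2.93 and 2.95 in Usp22-KOB and 2.36, 2.29 and 2.20 in WT, with no overlap between the groups. Krt19 had a mean share of 40.4% of all keratin transcripts in Usp22-KOA, 25.6% in Usp22-KOB and 26.7% in WT. Krt18 had 13.4% in Usp22-KOA, 24.4% in Usp22-KOB and 22.9% in WT. Krt8 had 35.6% in Usp22-KOA, 35.2% in Usp22-KOB and 32.2% in WT, and each knockout sample lay above each WT sample. By group mean, Krt19 stood first and Krt8 second in Usp22-KOA, followed by Krt18, Krt20 and Krt7. The sample ranges of Krt19 and Krt8 overlap there, but Krt19 was above Krt8 within each Usp22-KOA library, at ratios of 1.13, 1.07 and 1.21. In both Usp22-KOB and WT the order was Krt8, Krt19, Krt18, Krt7 and Krt20. In Usp22-KOB the ranges of Krt19 and Krt18 overlap, but Krt19 was above Krt18 within each library, at ratios of 1.02, 1.05 and 1.08. Among all genes, Krt7 ranked between 953 and 1096 in the Usp22-KOA libraries, between 181 and 223 in Usp22-KOB and between 141 and 150 in WT.

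**Figure D2:**
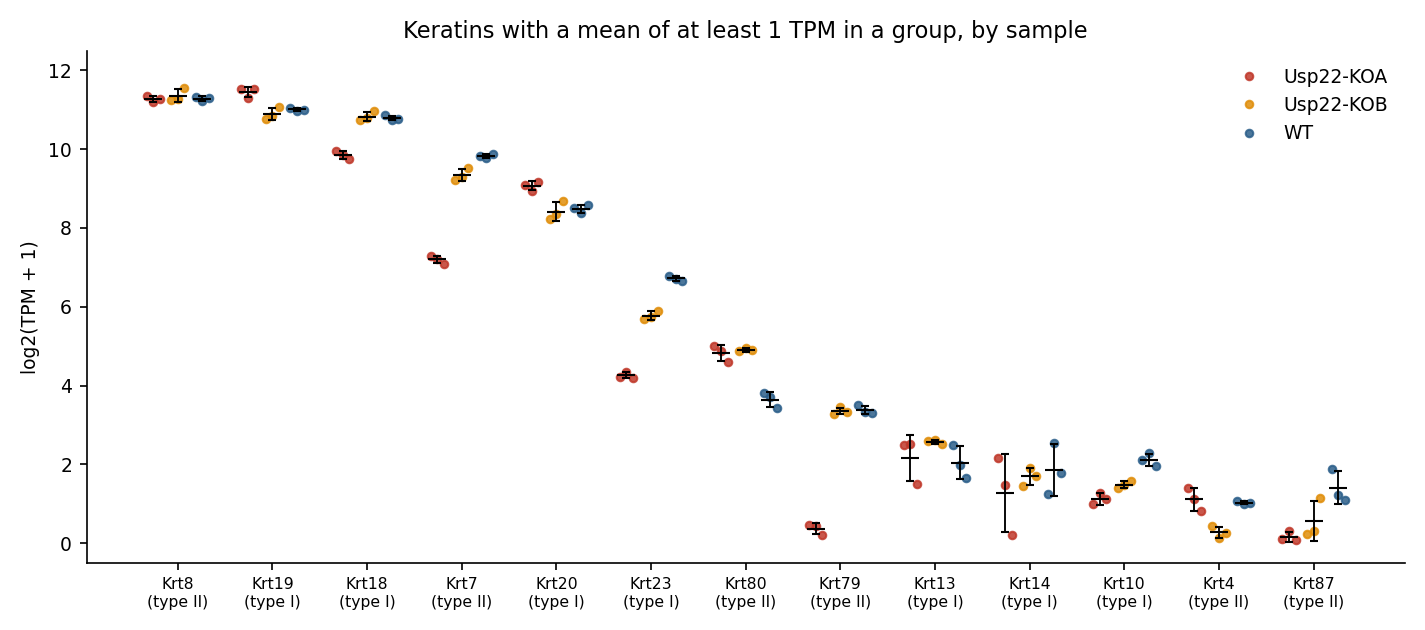
Each point is log2(TPM + 1) of 1 sample for the 13 keratins with a group mean of at least 1 TPM, and bars give the group mean ± SD of the log2 values (n = 3 each). Krt18, Krt7, Krt23, Krt79 and Krt10 have their Usp22-KOA points below all others, Krt19 and Krt20 have theirs above, and Krt80 has both knockouts above WT.

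Krt23, a type I keratin known from human pancreatic cancer cells as a gene induced by histone deacetylase inhibitors, fell in both knockouts. It stood at 17.7, 19.4 and 17.4 TPM in Usp22-KOA samples, 50.6, 52.4 and 58.9 TPM in Usp22-KOB and 109.6, 104 and 99.97 TPM in WT. The groups were apart, with Usp22-KOB again between the other two. The log2 differences from WT were -2.46 ± 0.07 in Usp22-KOA (limma, Benjamini-Hochberg adjusted p = 4.6e-08) and -0.94 ± 0.07 in Usp22-KOB (adjusted p = 2.9e-05). The mean left in Usp22-KOA was 17.4% of WT, and that in Usp22-KOB 51.7%. The knockouts differed by -1.52 ± 0.07 (adjusted p = 9.7e-07).

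Krt79, a type II keratin of the hair canal and sebaceous duct in mouse skin, fell in Usp22-KOA. Its level was 0.369, 0.357 and 0.145 TPM in Usp22-KOA samples, 8.75, 9.94 and 9.06 TPM in Usp22-KOB and 10.3, 9.05 and 8.86 TPM in WT. All 3 Usp22-KOA values were under 1 TPM, and Usp22-KOB and WT overlapped. The mean in Usp22-KOA was 3.09% of that in WT, a log2 difference of -3.01 ± 0.12 (limma, Benjamini-Hochberg adjusted p = 1.6e-07) and the most negative among the keratins tested. In Usp22-KOB the difference from WT was -0.02 ± 0.12 (adjusted p = 0.910). Krt79 lies 56.4 kb from Krt8, with 1 keratin gene between them.

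Krt80, a type II keratin found in many differentiating epithelia, was the only tested keratin that rose in both knockouts. It stood at 31.2, 28.2 and 23.2 TPM in Usp22-KOA samples, 28.2, 30.1 and 28.7 TPM in Usp22-KOB and 13.01, 12.0 and 9.76 TPM in WT. The knockouts overlapped each other and lay above all 3 WT samples. The log2 differences from WT were 1.18 ± 0.12 in Usp22-KOA (limma, Benjamini-Hochberg adjusted p = 4.6e-05) and 1.26 ± 0.12 in Usp22-KOB (adjusted p = 1.1e-04). The difference between the knockouts was -0.08 ± 0.12 and did not pass the test (adjusted p = 0.606). Its neighbour Krt7, 40.9 kb away at the same end of the cluster, fell in both. An antisense gene, Gm35853, is annotated over Krt80 and another, Gm671, over Krt7, and whether reads were counted by strand is not stated.

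**Figure D3:**
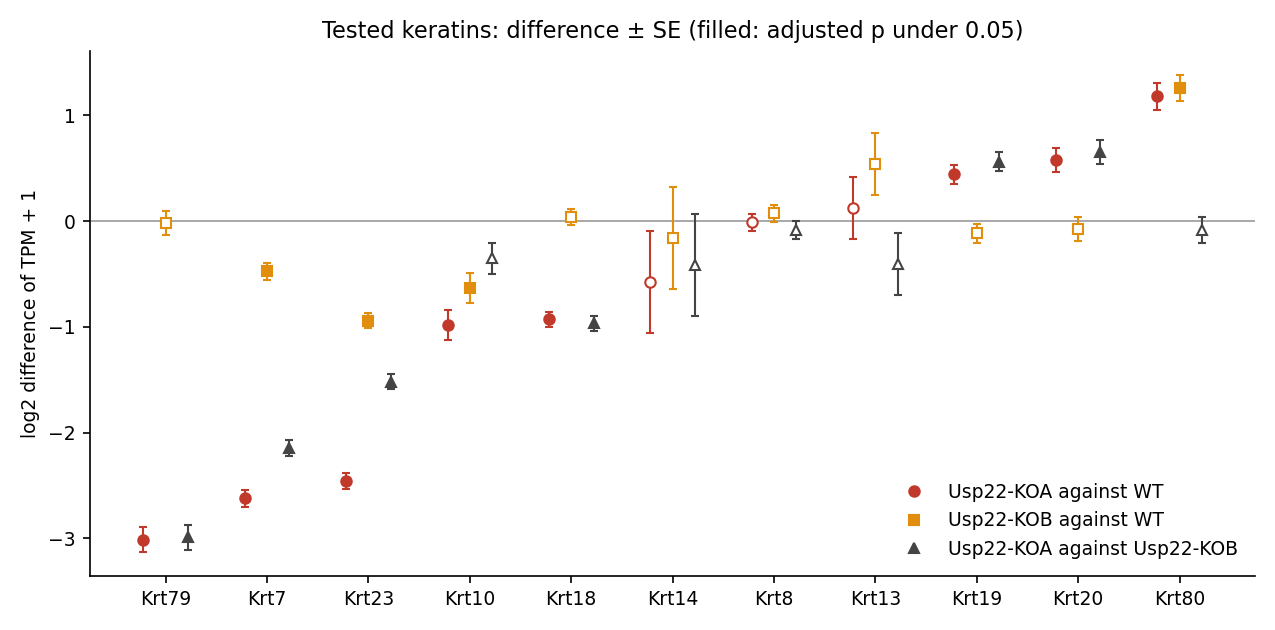
Each point is the log2 difference of a tested keratin ± SE, for each knockout against WT (circles and squares) and for Usp22-KOA against Usp22-KOB (triangles), and filled points have an adjusted p under 0.05. Krt79, Krt7 and Krt23 lie lowest for Usp22-KOA against WT (-3.01, -2.62 and -2.46), while Krt80 lies near 1.2 against WT in both knockouts.

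Of the 11 keratins tested, 8 passed for Usp22-KOA against WT, 3 higher and 5 lower, where 56.3% of all 13843 tested genes passed, 29.4% higher and 26.9% lower. For Usp22-KOB against WT, 4 passed, 1 higher and 3 lower, where 37.1% of all genes passed, 18.7% higher and 18.4% lower. The median log2 difference over the 11 was -0.57 in Usp22-KOA, beside 0.019 over all genes, and -0.073 in Usp22-KOB, beside -0.0075 over all genes. For the mean of both knockouts against WT, 6 keratins passed, 1 higher and 5 lower, where 50.0% of all genes passed, 25.9% higher and 24.1% lower. Between Usp22-KOA and Usp22-KOB, 6 passed, 2 higher and 4 lower, where 51.7% of all genes passed, 27.5% higher and 24.2% lower. The share of keratins that passed was above that over all genes for Usp22-KOA against WT and near it in the other comparisons. Without the filter at an average of 1 TPM, the keratin share was below that over all genes in each comparison. With 11 keratins tested, a single gene moves such a share widely, and the shares were not compared by a test. Because Krt18 and Krt79 fell in Usp22-KOA and stayed within their SE of WT in Usp22-KOB, their lower mean of both knockouts (-0.45 ± 0.06 for Krt18 and -1.52 ± 0.10 for Krt79) rests on Usp22-KOA. With the 6 knockout samples as 1 group, 3 keratins passed instead of 6, and the calls of Krt18, Krt7 and Krt79 ended (adjusted p = 0.291, 0.107 and 0.237). The comparisons with WT share the 3 WT samples.

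Keratins of layered epithelia were low in all groups. Krt10, a chain of the upper epidermis, stood at 0.972, 1.43 and 1.17 TPM in Usp22-KOA samples, 1.61, 1.79 and 1.96 TPM in Usp22-KOB and 3.28, 3.84 and 2.89 TPM in WT. The groups did not overlap, and Krt10 fell in Usp22-KOA by 0.98 ± 0.14 (limma, Benjamini-Hochberg adjusted p = 3.6e-04) and in Usp22-KOB by 0.63 ± 0.14 (adjusted p = 0.00868). An antisense gene, Gm11940, overlaps Krt10. Krt13, a keratin of moist layered epithelia such as the oesophagus, had 4.62, 4.70 and 1.81 TPM in Usp22-KOA samples, 5.003, 5.12 and 4.74 TPM in Usp22-KOB and 4.61, 2.94 and 2.14 TPM in WT. Krt13 passed in none of the 4 comparisons, and its log2 difference from WT was 0.13 in Usp22-KOA (95% interval -0.54 to 0.79) and 0.54 in Usp22-KOB (95% interval -0.13 to 1.20). Krt4, the usual partner of Krt13, was not tested because of its low mean. It stood at 1.63, 1.18 and 0.760 TPM in Usp22-KOA samples, 0.341, 0.0974 and 0.192 TPM in Usp22-KOB and 1.10, 0.981 and 1.03 TPM in WT, and all 3 Usp22-KOB samples were lowest.

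Krt14, the type I chain of basal cells, scattered within each group. It had 3.47, 1.77 and 0.148 TPM in Usp22-KOA samples, 1.75, 2.75 and 2.26 TPM in Usp22-KOB and 1.35, 4.81 and 2.42 TPM in WT. The groups overlapped, no comparison passed, and the log2 difference of Usp22-KOA from WT had a 95% interval of -1.66 to 0.52. Its partner Krt5 was not tested and stood at 2.02, 0.467 and 0.0461 TPM in Usp22-KOA samples, 0, 0.0945 and 0 TPM in Usp22-KOB and 0.278, 0 and 0.107 TPM in WT. The wound keratin Krt6a had 1.44, 0.861 and 0.178 TPM in Usp22-KOA samples, 0.160, 0.137 and 0 TPM in Usp22-KOB and 0.0896, 0 and 0 TPM in WT. Of the Krt6a transcript's 31-base words, 51.3% occur in other genes, mostly Krt6b. In Krt5 and Krt6a alike, the first Usp22-KOA sample was the highest of the 9. Krt17, another wound keratin, was also highest there, at 1.19 TPM, and at most 0.229 TPM in each other sample. Trp63, the transcription factor that marks basal cells, was not tested either and had 2.004, 3.13 and 2.54 TPM in Usp22-KOA samples, 0.0546, 0.204 and 0.123 TPM in Usp22-KOB and 0.286, 0.310 and 0.176 TPM in WT. All 3 Usp22-KOA samples lay above the other 6 for Trp63, while Krt14 overlapped. Krt15, also a basal keratin and not tested, went the other way and lay below WT in both knockouts. It had 0.350, 0.283 and 0.360 TPM in Usp22-KOA samples, 0.110, 0 and 0.0619 TPM in Usp22-KOB and 1.22, 0.548 and 0.663 TPM in WT. Krt5, Krt14 and Krt15 together averaged 2.97 ± 2.67 TPM in Usp22-KOA, 2.34 ± 0.49 TPM in Usp22-KOB and 3.80 ± 1.36 TPM in WT (SD).

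The remaining keratins were near or at 0. Krt87, a hair-type keratin, had 0.0702, 0.227 and 0.0570 TPM in Usp22-KOA samples, 0.165, 0.234 and 1.22 TPM in Usp22-KOB and 2.71, 1.34 and 1.15 TPM in WT, and 52.4% of its 31-base words occur in other genes. It was not tested, and the 1.22 TPM of a single Usp22-KOB sample lay inside the WT range. Krt87 was 1 of 16 hair shaft keratins, of which 4 were listed at 0 in all 9 libraries. Of 9 keratins of the inner root sheath and companion layer, 7 were listed at 0 throughout and the highest value was 0.261 TPM. Below a group mean of 1 TPM stood 42 keratins, 27 of them above 0 in some library, with the highest group mean at 0.880 TPM for Krt85 in WT.

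**Figure D4:**
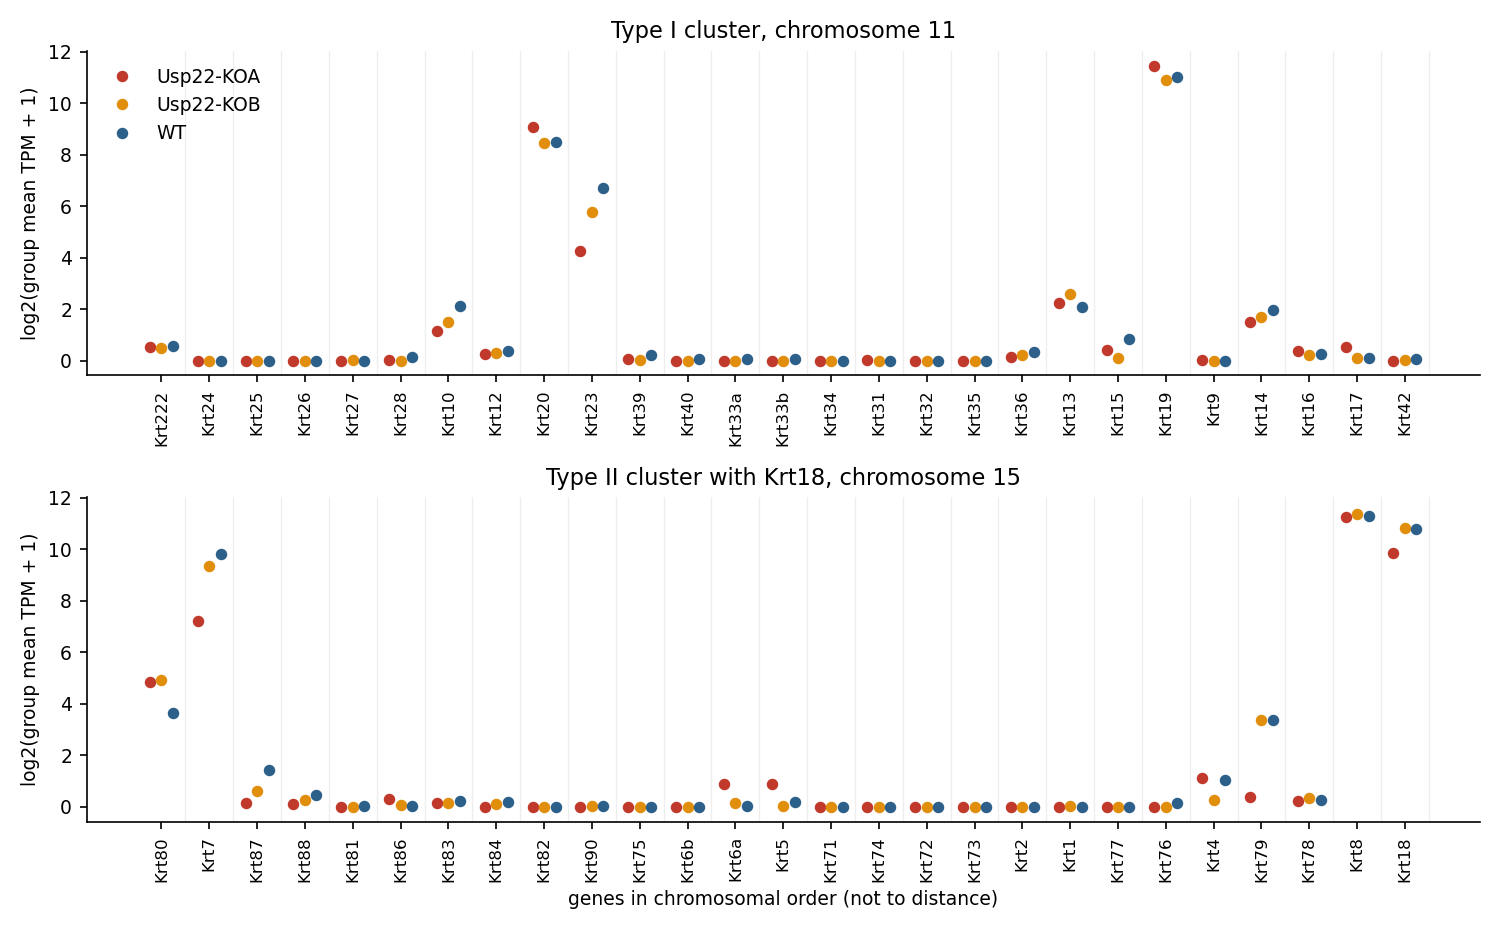
Points give log2(group mean TPM + 1) of the keratins in the order of their genes on chromosome 11 (upper panel) and chromosome 15 (lower panel), without scale of distance. High genes stand among genes at 0 in both clusters, and neighbours such as Krt20 and Krt23 or Krt80 and Krt7 have the Usp22-KOA point on opposite sides of the WT point.

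Genes of the structures that hold keratin filaments were read from lists of known members. Among all tested genes, 29.4% were higher and 26.9% lower for Usp22-KOA against WT, with a median of 0.019, while 18.7% were higher and 18.4% lower for Usp22-KOB against WT, with a median of -0.0075. Of 14 desmosome genes, 10 were tested. In Usp22-KOA 6 of these fell and 2 rose, with a median of -1.19, and in Usp22-KOB 5 fell and 1 rose, with a median of -0.33. Dsg2, a desmosomal cadherin, averaged 3.58 TPM in Usp22-KOA, 18.6 TPM in Usp22-KOB and 42.4 TPM in WT, with log2 differences from WT of -3.25 ± 0.12 (limma, Benjamini-Hochberg adjusted p = 1.2e-07) and -1.15 ± 0.12 (adjusted p = 1.3e-04). Pkp3, a plakophilin of the desmosomal plaque, showed the same order at 2.04, 9.02 and 20.0 TPM in Usp22-KOA, Usp22-KOB and WT. Pkp2, another plakophilin, fell to 13.2 TPM in Usp22-KOA, against 49.6 TPM in WT, and in Usp22-KOB its 43.4 TPM did not pass the test against WT (adjusted p = 0.0732). Ppl, periplakin, a linker of keratins to the plaque, rose in both knockouts, with 70.1 TPM in Usp22-KOA, 60.8 TPM in Usp22-KOB and 29.0 TPM in WT. Its log2 difference for the mean of both knockouts was 1.14 ± 0.08 (limma, Benjamini-Hochberg adjusted p = 8.1e-06). Group means ordered Dsg2 and Pkp3 like Krt7 and Krt23, from Usp22-KOA at the lowest to WT at the highest.

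Of 10 hemidesmosome and keratin linker genes, 9 were tested. In Usp22-KOA 3 of these rose and 2 fell, where 56.3% of all genes passed, and the median was 0.044, beside 0.019 over all genes. In Usp22-KOB 3 rose and 3 fell, where 37.1% of all genes passed, and the median was 0.059, beside -0.0075. Itgb4, the integrin chain that ties hemidesmosomes to keratins, rose in both knockouts (0.59 ± 0.08 for their mean against WT, limma adjusted p = 2.4e-04) and averaged 103 TPM in Usp22-KOA, 87.3 TPM in Usp22-KOB and 62.5 TPM in WT. Eppk1, epiplakin, which binds keratins, fell in both knockouts and averaged 1.80 TPM in Usp22-KOA, 1.65 TPM in Usp22-KOB and 3.02 TPM in WT. Among 16 other intermediate filament genes, 7 were tested, of which 1 rose and 4 fell in Usp22-KOA (all genes 29.4% higher and 26.9% lower) and 2 rose and 2 fell in Usp22-KOB (all genes 18.7% higher and 18.4% lower). Vim, vimentin, the filament of mesenchymal cells, had 3167, 3099 and 2797 TPM in Usp22-KOA samples, 2493, 2595 and 2802 TPM in Usp22-KOB and 1610.1, 1545 and 1682 TPM in WT. Both knockouts lay above WT, and Vim rose by 0.90 ± 0.06 in Usp22-KOA (limma, Benjamini-Hochberg adjusted p = 4.4e-06) and by 0.70 ± 0.06 in Usp22-KOB (adjusted p = 7.2e-05), while Krt8 did not pass in either.

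Of 15 epithelial transcription factors, 8 were tested, of which 2 rose and 4 fell in Usp22-KOA, where 56.3% of all genes passed, and 1 rose and 6 fell in Usp22-KOB, where 37.1% passed. Klf4, a factor of differentiated epithelia, rose in both knockouts (1.15 ± 0.05 for their mean against WT, limma adjusted p = 7.9e-07) and averaged 119 TPM in Usp22-KOA, 89.6 TPM in Usp22-KOB and 46.1 TPM in WT. Elf3, an epithelial factor of the ETS family, fell in both knockouts (-1.53 ± 0.12 for their mean against WT, limma adjusted p = 1.2e-05) and averaged 55.3 TPM in Usp22-KOA, 73.4 TPM in Usp22-KOB and 185 TPM in WT. Cdx2, the intestinal homeobox factor, chosen after its values were seen, had 68.1, 61.4 and 70.6 TPM in Usp22-KOA samples, 19.6, 20.6 and 20.99 TPM in Usp22-KOB and 27.4, 28.6 and 27.3 TPM in WT. It rose in Usp22-KOA by 1.23 ± 0.07 (limma, Benjamini-Hochberg adjusted p = 7.7e-07) and fell in Usp22-KOB by 0.43 ± 0.07 (adjusted p = 0.00124). Krt20 was also highest in Usp22-KOA but did not pass in Usp22-KOB (limma adjusted p = 0.644). Of all genes, 27.5% were higher in Usp22-KOA than in Usp22-KOB, and a link between Cdx2 and Krt20 was not tested. Of 12 epithelial surface genes, 10 were tested, and all 10 fell in Usp22-KOA, where 26.9% of all genes were lower, while 9 fell in Usp22-KOB, where 18.4% were lower. The medians were -2.48 in Usp22-KOA, beside 0.019 over all genes, and -1.92 in Usp22-KOB, beside -0.0075. Muc1, a membrane mucin of ducts, averaged 49.5 TPM in Usp22-KOA, 139 TPM in Usp22-KOB and 603 TPM in WT, and Cldn7, a claudin, 10.2, 14.2 and 81.1 TPM in the same order. The keratin sum averaged 6960.0 ± 420.3 TPM in Usp22-KOA, 7468 ± 819 TPM in Usp22-KOB and 7738 ± 264 TPM in WT, beside 886 to 978, 1137 to 1427 and 2497 to 2519 TPM for the sum of the epithelial surface genes.

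**Figure D5:**
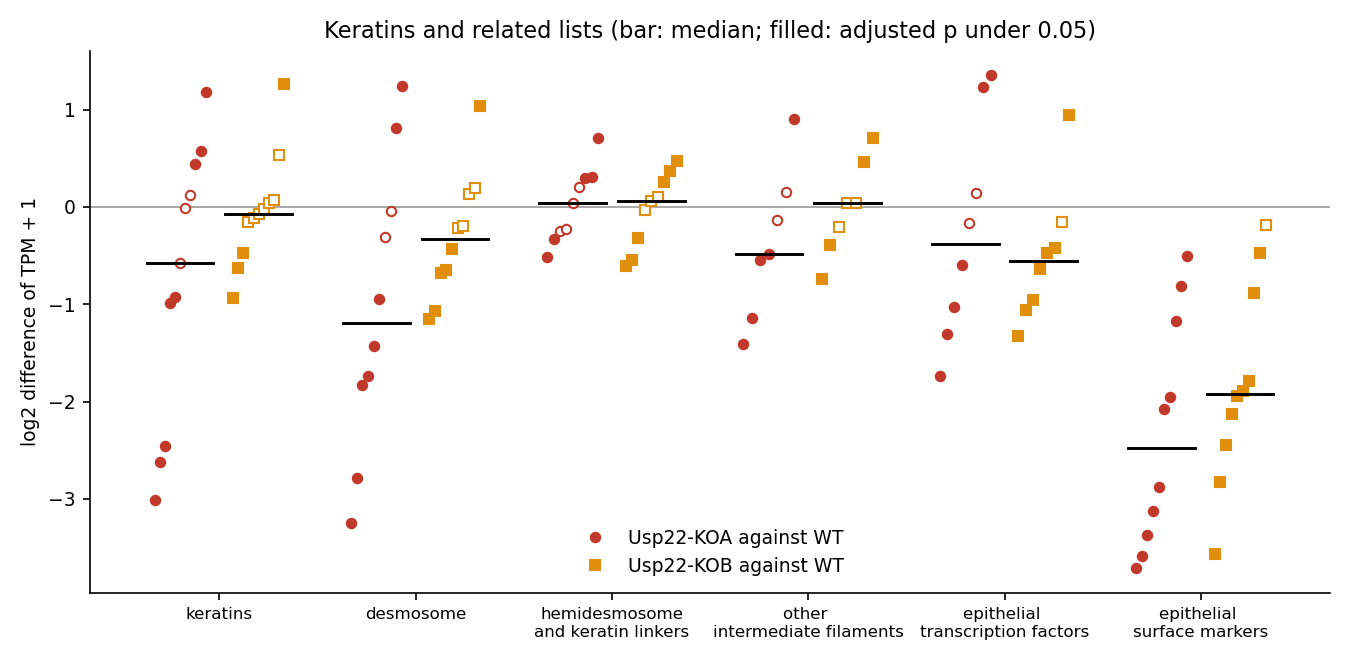
Each point is a tested gene's log2 difference from WT, with circles for Usp22-KOA and squares for Usp22-KOB, filled where the adjusted p is under 0.05, and bars give list medians. Keratins spread on both sides of 0 (medians -0.57 and -0.073), desmosome genes lie lower (-1.19 and -0.33) and epithelial surface genes lowest (-2.48 and -1.92).

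Markers of other cell types also differed between the groups. Leukocyte markers summed to 454 to 982 TPM in Usp22-KOA, 988 to 1951 TPM in Usp22-KOB and 399 to 682 TPM in WT, with 2 of 10 higher in Usp22-KOA (29.4% of all genes) and 9 of 10 higher in Usp22-KOB (18.7% of all genes). Fibroblast markers summed to 188 to 221 TPM in Usp22-KOA, 798 to 1228 TPM in Usp22-KOB and 505 to 924 TPM in WT, with 6 of 8 lower in Usp22-KOA (26.9% of all genes) and 3 of 8 higher in Usp22-KOB (18.7% of all genes). Endothelial markers summed to 4.34 to 9.49 TPM in Usp22-KOA, 20.5 to 31.7 TPM in Usp22-KOB and 27.3 to 37.4 TPM in WT, and 5 of 5 tested fell in Usp22-KOA (26.9% of all genes) and 1 of 5 fell in Usp22-KOB (18.4% of all genes). The fibroblast and endothelial sums were lowest in the Usp22-KOA samples, and the leukocyte sum was highest in the Usp22-KOB samples. The part of these lists in the keratin results was not tested.

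Skin keratinocyte markers summed to 30.6 to 32.5 TPM in Usp22-KOA, 29.5 to 39.5 TPM in Usp22-KOB and 67.3 to 76.4 TPM in WT, so both knockouts lay lower. Of the 7 tested, 4 fell and 1 rose in Usp22-KOA (all genes 26.9% lower and 29.4% higher) and 2 fell in Usp22-KOB (all genes 18.4% lower). The 4 that fell in Usp22-KOA are genes of the upper epidermis. Dmkn averaged 8.30 TPM in Usp22-KOA, 3.97 TPM in Usp22-KOB and 31.4 TPM in WT, Ivl 4.13, 12.7 and 18.1 TPM, Sbsn 4.36, 6.79 and 11.1 TPM and Lor 0.313, 0.831 and 1.88 TPM in the same order of groups. Their log2 differences of Usp22-KOA from WT were -1.82 for Dmkn, -1.94 for Ivl, -1.20 for Sbsn and -1.12 for Lor, and in Usp22-KOB Dmkn and Sbsn fell by 2.81 and 0.65. Of 19 skin markers in the table, Flg2, Casp14, Hrnr, Lce1c, Lce1m, Klk5 and Klk7 were listed at 0 in all 9 libraries, as were 6 Krtap genes among 14 hair follicle markers. The marker that rose was Asprv1, a protease of the upper epidermis, which had 8.55, 5.87 and 2.62 TPM in Usp22-KOA samples, 1.97, 2.46 and 0.285 TPM in Usp22-KOB and 1.63, 0.504 and 1.97 TPM in WT, and like Krt5 and Krt6a it was highest in the first Usp22-KOA sample. The hair follicle list summed to 2.41 to 3.70 TPM in Usp22-KOA, 3.17 to 3.77 TPM in Usp22-KOB and 5.53 to 7.21 TPM in WT, and 1 of 2 tested fell in each knockout (all genes 26.9% lower in Usp22-KOA and 18.4% lower in Usp22-KOB). Skeletal muscle markers, with Myh2 listed at 0 throughout, summed to 4.55 to 6.51 TPM in Usp22-KOA, 2.27 to 7.24 TPM in Usp22-KOB and 7.39 to 8.56 TPM in WT, and 1 of 2 tested fell in Usp22-KOB, beside 18.4% of all genes. Acinar markers, those of the enzyme-making cells of the pancreas, with Cela2a listed at 0 throughout, summed to 81.9 to 92.8 TPM in Usp22-KOA, 8.05 to 9.58 TPM in Usp22-KOB and 43.8 to 52.8 TPM in WT, with 1 of 2 higher and 1 of 2 lower in Usp22-KOA (all genes 29.4% higher and 26.9% lower) and 1 of 2 lower in Usp22-KOB (all genes 18.4% lower). Almost all of the acinar sum came from the 2 tested genes. Prss2 averaged 47.4 TPM in Usp22-KOA, 1.16 TPM in Usp22-KOB and 1.28 TPM in WT, and rose in Usp22-KOA. Cela1 averaged 38.0, 7.33 and 45.8 TPM in the same order and fell in both knockouts. No other acinar marker had a group mean above 0.229 TPM. The part of these lists in the low keratins, Krt10, Krt14 and Krt79 among them, was not tested.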

How the data were processed

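The authors deposited 1 table of TPM for 24493 genes in 9 sample columns, named as in the labels. Salmon, DESeq2 and mm10 are named in the submitters' processing notes. The sources used here give neither their roles and versions nor the annotation. The deposited TPM were put on a log2 scale as log2(TPM + 1). Genes averaging 1 TPM or more were kept (13843, with 10650 set aside), and all 9 samples entered 1 limma fit with 3 group means and an intensity trend. Adjusted p-values are Benjamini-Hochberg over all 13843 genes, called under 0.05. The fit was tested on simulated data, in which few genes changed and by the same amount in both knockouts. In the data 50.0% of genes passed for both knockouts against WT, so the simulation does not speak to these calls. Count models were not used because TPM are not counts.

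Named keratins had a group mean of at least 1 TPM, and up to 4 genes of each of 12 lists (141 members, 140 in the table) were named by smallest adjusted p. The keratins, lists and tests were chosen with earlier results of these data known. Genes outside this rule, such as Krt5, Krt6a, Krt15, Krt17, Trp63, Asprv1 and Cdx2, were chosen after their values were seen. Coordinates and 31-base words are from GENCODE M21 (GRCm38), promoters from RefSeq (GRCm38.p6), with no entry for Krt19 and Krt80. Versions were limma 3.58.1 under R 4.3.3, with numpy 2.4.6, pandas 2.3.3 and matplotlib 3.10.9 under Python 3.11.15.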

Additional observations from a re-analysis of the deposited data

Results flagged for a closer look

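For 6 keratins the difference from WT was not the same in the knockouts, by the limma test of the difference itself over all 13843 genes (Benjamini-Hochberg adjusted). On the log2(TPM + 1) scale, the Usp22-KOA difference minus the Usp22-KOB difference was -2.99 for Krt79 (adjusted p = 3.3e-07), -2.15 for Krt7 (adjusted p = 3.0e-07), -1.52 for Krt23 (adjusted p = 9.7e-07) and -0.97 for Krt18 (adjusted p = 1.1e-05). For Krt20 it was 0.65 (adjusted p = 0.00128) and for Krt19 0.56 (adjusted p = 8.4e-04). Krt7 and Krt23 fell in both knockouts and by more in Usp22-KOA. Krt18 and Krt79 fell, and Krt19 and Krt20 rose, in Usp22-KOA, with Usp22-KOB values that overlapped WT. In all 6, the 3 Usp22-KOA samples did not overlap the 3 Usp22-KOB samples. Across all tested genes, 51.7% passed between the knockouts.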

How the results depend on the processing

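Over 868 values of single keratins under alternatives, 829 kept direction and side of the threshold, 3 became weaker, 11 stronger and 25 reversed. All of the reversed keratin values were differences that had not passed. Over 1668 values of the other named genes, 1618 kept both, 36 became weaker and so lost their call, 10 became stronger and 4 reversed. With the 6 knockout samples as 1 group, 3 keratins passed for both knockouts against WT, against 6, and 2946 of all genes, against 6920. Without a filter on low values 40 keratins were tested, against 11 with it. Of these 40, 9 passed for both knockouts against WT, 12 for Usp22-KOA, 6 for Usp22-KOB and 8 between the knockouts. Of at most 24493 genes, 7431, 8599, 5293 and 7540 passed in the same order of comparisons. The share of keratins that passed was therefore below that over all genes in each comparison, unlike in the main fit. Leaving out each sample in turn gave 6 to 8 keratins for both knockouts against WT, 8 for Usp22-KOA, 4 for Usp22-KOB and 6 between the knockouts. For both knockouts against WT, calls were gained by Krt20 without the second Usp22-KOA, the first Usp22-KOB or the third Usp22-KOB sample (limma adjusted p = 0.0488, 0.0259 and 0.0474), under median-of-ratios scaling (0.0331) and with array weights (0.0279), by Krt19 without the second Usp22-KOA sample (0.0457) and by Krt13 without the third (0.50, adjusted p = 0.0447). Krt10 passed between the knockouts under median-of-ratios scaling, without a trend and with array weights (adjusted p = 0.0417, 0.0260 and 0.0388). Rescaling without Mir6236 moved the WT sums to 8255 TPM for all keratins, 4601 for type I, 3655 for type II and 8104 for simple keratins. Mir6236 took 4.60% to 5.19% of the Usp22-KOA libraries, 5.22% to 6.13% of Usp22-KOB and 5.36% to 6.85% of WT. Leaving it out raises the other genes in every library. These WT sums are therefore not to be set against knockout sums on the deposited scale. Quantile normalization moved type II in Usp22-KOA to 2839 TPM and the type I per type II ratio in Usp22-KOB to 1.28. Apart from the rescaling without Mir6236, the cause of these changes was not tested.

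Reversals with array weights were Krt8 at -0.012 for both knockouts and -5.6e-04 for Usp22-KOB, and for Usp22-KOB Krt14 at 0.011, Krt18 at -0.0093 and Krt79 at 0.039. With quantile normalization they were Krt8 at 0.074 for Usp22-KOA, -0.072 for Usp22-KOB and 0.15 between the knockouts, Krt18 at -0.046 for Usp22-KOB and Cd151 at -0.072 between the knockouts. Leaving out a sample, the ranges that crossed 0 were, for Krt8, -0.019 to 0.058 for both knockouts, -0.052 to 0.022 for Usp22-KOA, -0.025 to 0.13 for Usp22-KOB and -0.14 to 0.012 between the knockouts. For Usp22-KOB against WT they were -0.47 to 0.19 for Krt14, -0.029 to 0.083 for Krt18, -0.20 to 0.021 for Krt20, -0.068 to 0.040 for Krt79 and -4.6e-04 to 0.095 for Lmnb1. Krt13 ranged from -0.068 to 0.46 for Usp22-KOA, and between the knockouts Krt14 ranged from -0.86 to 0.13, Krt80 from -0.17 to 0.031 and Cd151 from -0.0052 to 0.12.

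Replicate numbers are shared by the groups. Deviations of same-numbered samples correlated between -0.125 and 0.276, and those of differently numbered samples between -0.235 and 0.201. Same-numbered samples of Usp22-KOA and Usp22-KOB correlated at 0.187, 0.0765 and 0.276. No label states a pairing, and the replicate number was not taken as one in the main fit. With the number as a replicate block, 7 keratins passed for both knockouts against WT (Krt20 joined, limma adjusted p = 0.0160), 8 for Usp22-KOA, 4 for Usp22-KOB and 6 between the knockouts. Of all 13843 genes, 6702, 7588, 4835 and 6922 passed in the same order of comparisons. TPM keeps no depth, so an exact 0 sets no upper limit on a level.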
